A study of Homo sapiens with 7 samples.

Results

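The 43 mature miRNAs described here come from the imprinted DLK1-DIO3 domain at 14q32 and were followed in small extracellular vesicles (sEVs) of HepG2 cells, a human hepatocellular carcinoma line. They were taken by name from the count table of 2656 mature miRNAs, and all 43 had a row there. The sEVs came from HepG2 cells infected with a lentiviral, doxycycline-induced short hairpin RNA, either a scrambled control (shCTR, 3 libraries) or a hairpin against the RNA-binding protein SYNCRIP (shSYNCRIP, 4 libraries). Puromycin selection was common to both groups, and only 1 hairpin sequence against SYNCRIP was used, so effects of that hairpin and of SYNCRIP loss cannot be told apart. The titles of all samples give HepG2, whereas the cell line field gives that name for shCTR replicate 1 alone and a HepG name with another number for each other sample. All cells were kept in medium with exosome-free serum for 72 h before differential centrifugation of the medium. The comparison asked which miRNAs of the sEV cargo depended on SYNCRIP. SYNCRIP mRNA itself is not in a table of miRNAs. As each library is a biological replicate by its label, p values describe the spread between these 7 libraries.

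The DLK1-DIO3 domain is imprinted: DLK1, RTL1 and DIO3 are protein-coding genes expressed from the paternal chromosome, whereas the noncoding genes MEG3, MEG8 and MEG9 and the miRNAs are expressed from the maternal chromosome. The miRNAs are thought to be cut from long noncoding transcripts, and the domain is most active in embryo, placenta, brain and mesenchymal cells. It is largely silent in adult hepatocytes and switched on in a subset of liver cancers. In RefSeq (GRCh38.p14) all 43 members had a sequence, of 21 to 23 bases, from 37 hairpin loci on the plus strand between chr14:100869075-101066786, a span of 198 kb. By place, 12 members belonged to the stretch of MEG3, RTL1 and MEG8 (hairpins MIR493 to MIR370) and 31 to the stretch from MIR379 to MIR656.

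The 14 members that reached 100 counts in at least 1 library held 99.2% of all cluster counts, so their sequences are shown. Each is written 5′ to 3′ with the seed, bases 2 to 8, in capitals; the order follows the chromosome.
hsa-miR-493-5p: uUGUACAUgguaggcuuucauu
hsa-miR-431-5p: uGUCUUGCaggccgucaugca
hsa-miR-433-3p: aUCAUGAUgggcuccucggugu
hsa-miR-127-3p: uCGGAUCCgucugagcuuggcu
hsa-miR-432-5p: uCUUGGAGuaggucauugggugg
hsa-miR-411-5p: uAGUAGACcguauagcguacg
hsa-miR-494-3p: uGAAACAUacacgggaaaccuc
hsa-miR-376b-3p: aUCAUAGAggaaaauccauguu
hsa-miR-487b-3p: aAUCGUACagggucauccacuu
hsa-miR-382-5p: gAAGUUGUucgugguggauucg
hsa-miR-409-5p: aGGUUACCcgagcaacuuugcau
hsa-miR-409-3p: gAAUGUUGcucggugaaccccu
hsa-miR-369-5p: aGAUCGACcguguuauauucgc
hsa-miR-369-3p: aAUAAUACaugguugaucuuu
These 14 had 14 different seeds. Among all 43, the only shared seed was that of miR-376b-3p and miR-376a-3p (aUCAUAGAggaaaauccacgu), whose first 18 bases are identical. A read that ends before base 19 cannot be given to either of that pair, and their counts are therefore uncertain.

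Depth differed widely, from 29863 to 388226 miRNA counts per library, the lowest in shSYNCRIP replicate 2. shSYNCRIP replicate 4 stood apart with 100 miRNAs detected, against 180 to 275 in the other libraries. Among liver miRNAs fixed as markers, miR-122-5p had between 313 and 1664 counts in every library, miR-192-5p had at most 1, and miR-122-3p and miR-885-5p were at 0 throughout. The 8 liver markers held 1.83% to 3.29% of the counts in shCTR and 1.64% to 4.38% in shSYNCRIP. These shares include miR-483-3p, with 1356, 1706 and 2389 counts in shCTR and 508, 152, 4906 and 373 in shSYNCRIP. They also include miR-483-5p, with 1214, 103 and 2691 against 0, 0, 3325 and 1286. miR-194-5p ran from 0 to 1120 counts and miR-148a-3p from 0 to 298. The 8 blood-cell markers, each detected in at least 1 library, held 12.8% to 19.9% and 8.85% to 14.3%. miR-486-5p was the largest of these 8 in every library, ranging from 2644 to 34044, so their share mainly follows this miRNA. Others were scattered: miR-144-3p appeared in shSYNCRIP replicate 3 alone (138). miR-451a peaked in that library at 6279 but had 1 and 0 in shSYNCRIP replicates 2 and 4. Among 5 mesenchymal markers, 4 were detected and held 1.60% to 2.31% and 0.549% to 2.03%, with miR-199a-5p at 0. The ranges of the summed blood-cell and mesenchymal shares lay lower in shSYNCRIP, as did that of the cluster, though single markers such as miR-451a differed. The part of these shares in the results below was not tested.

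Most of the 43 members were detected, but few carried the counts. Of the 43 members, 32 had at least 1 count in some library (74.4%, against 15.3% of all mature miRNAs in the table and 32.7% of 49 other miRNAs of the same domain) and 11 had none: miR-493-3p, miR-337-5p, miR-337-3p, miR-299-3p, miR-329-3p, miR-654-3p, miR-889-3p, miR-655-3p, miR-382-3p, miR-377-3p and miR-656-3p. As the 43 were chosen with earlier results of these data known, no excess is read from these detection shares. The members summed to 14532 counts, which was 1.23% of the 1178145 counts of the 7 libraries. miR-127-3p with 5376 counts and miR-369-3p with 2340 made up 53.1% of this sum, and the 5 leading members, with miR-493-5p, miR-409-5p and miR-432-5p, made up 75.7%. At the other end, 18 members never passed 23 counts and held 110 counts together, and 4 of them had a single count in all libraries. Both stretches were represented, with 58.4% of the counts from the MEG3 to MEG8 stretch (9 of 12 members detected) and 41.6% from the MIR379 to MIR656 stretch (23 of 31 detected).

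**Figure D1:**
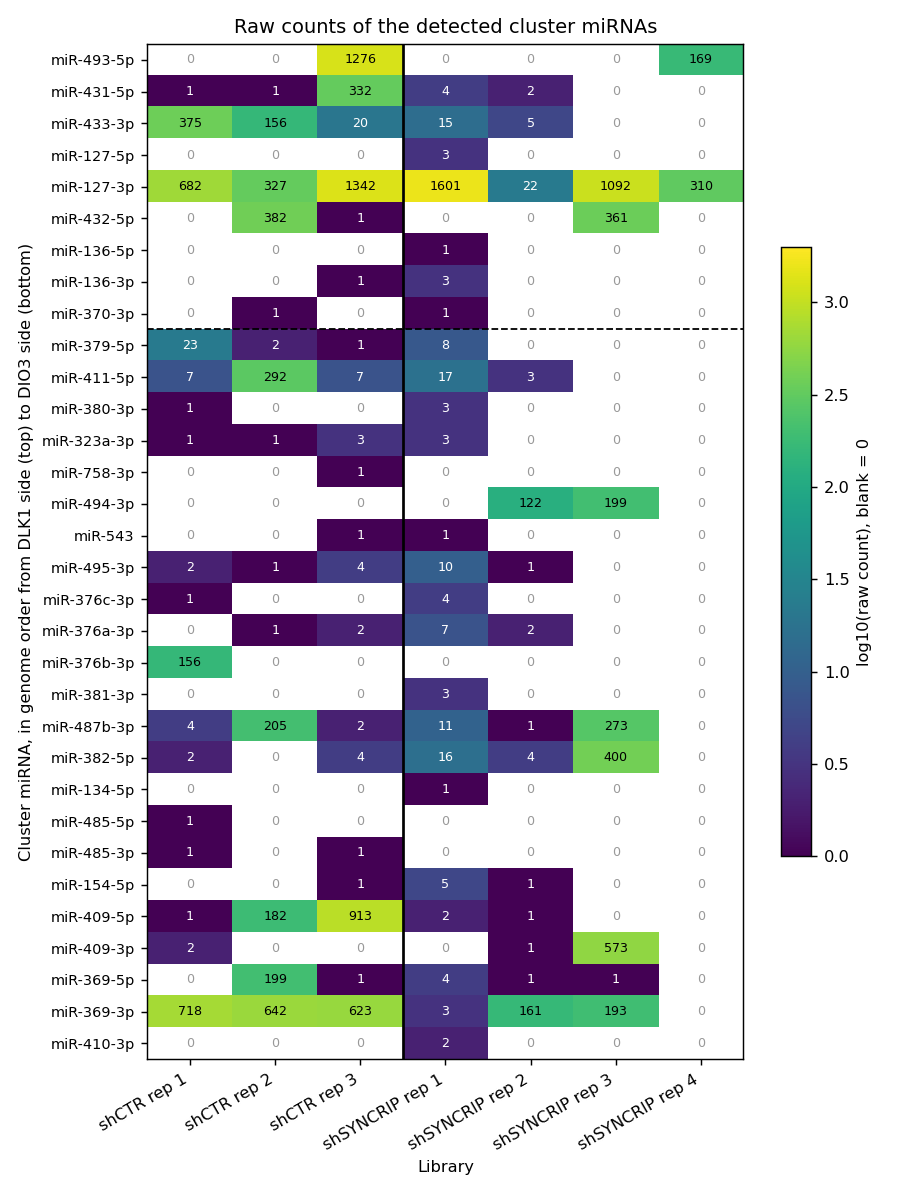
Raw counts of the 32 detected cluster miRNAs (rows, in genome order; dashed line between the MEG3 to MEG8 stretch above and the MIR379 to MIR656 stretch below) in the 3 shCTR and 4 shSYNCRIP libraries (columns); the number in each cell is the count and the colour its log10. miR-127-3p is filled in all 7 libraries, while most other rows hold values up to 23 or a value of 122 or more in few libraries.

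The cluster took 1.86%, 1.63% and 1.17% of the counts in shCTR replicates 1 to 3, and 1.15%, 1.10%, 1.28% and 0.417% in shSYNCRIP replicates 1 to 4. The groups overlapped, since shSYNCRIP replicate 3 lay above shCTR replicate 3. On average the share was 1.55% ± 0.352 (SD, n = 3) in shCTR and 0.985% ± 0.387 (SD, n = 4) in shSYNCRIP, a difference of -0.567 percentage points against a pooled SD of 0.373. No p value was computed for this sum because the members were chosen with earlier results known. The 95% exact binomial intervals were narrow, from 0.380% to 0.456% in shSYNCRIP replicate 4 and from 1.78% to 1.94% in shCTR replicate 1. They cover counting error only, as amplified reads are not independent molecules.

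**Figure D2:**
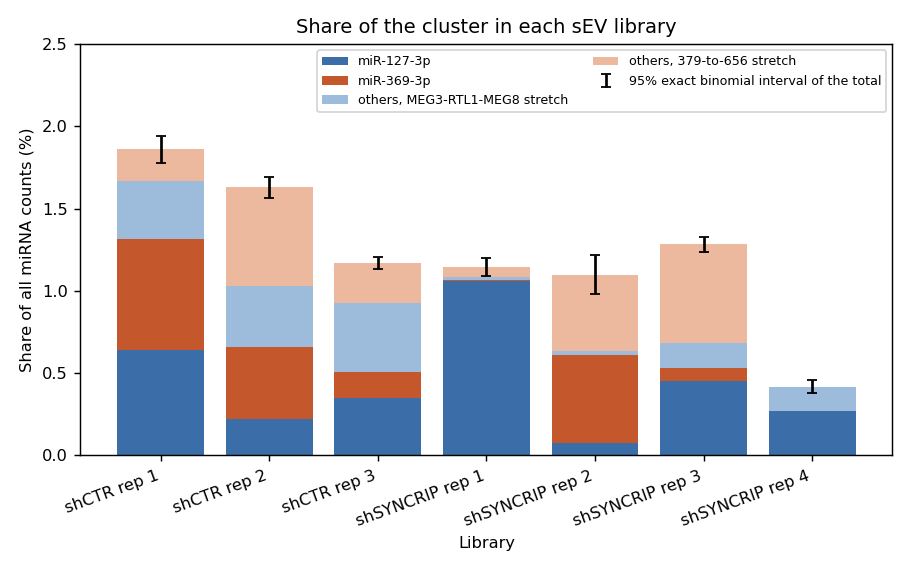
Share of all miRNA counts (%) taken by the cluster in each library, stacked into miR-127-3p, miR-369-3p and the other members of either stretch, with the 95% exact binomial interval of the total. The total runs from 0.417% in shSYNCRIP replicate 4 to 1.86% in shCTR replicate 1, and its makeup changes from library to library within both groups.

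What filled this share differed between libraries more than the share itself. miR-127-3p made up 34.5%, 13.7% and 29.6% of the cluster counts in shCTR and 92.7%, 6.73%, 35.3% and 64.7% in shSYNCRIP. miR-369-3p made up 36.3%, 26.8% and 13.7% in shCTR and 0.174%, 49.2%, 6.24% and 0% in shSYNCRIP. The remainder of the cluster reached 59.5% in shCTR replicate 2 and 58.4% in shSYNCRIP replicate 3 but only 7.18% in shSYNCRIP replicate 1. The MEG3 to MEG8 stretch accordingly supplied between 36.2% and 65.5% of the cluster counts in shCTR and between 8.87% and 100% in shSYNCRIP, a range that enclosed the shCTR values.

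The number of members detected was 17, 14 and 20 in shCTR and 24, 14, 8 and 2 in shSYNCRIP, so the highest and the lowest number were both in the shSYNCRIP group. At the depth of the shallowest library, 29863 counts, the expected numbers were 10.05, 9.38 and 7.90 in shCTR and 14.17, 14, 7.12 and 2 in shSYNCRIP. shSYNCRIP replicate 4 therefore remained the library with the fewest members at equal depth, with miR-127-3p and miR-493-5p as its only ones. In shSYNCRIP replicate 1, 23 of the 24 members had counts from 1 to 17 and only miR-127-3p, at 1601, had more. In shSYNCRIP replicate 3 the pattern was the opposite, since 7 of its 8 members had 193 counts or more and the last had 1. Over all miRNAs the share of those detected that had 100 counts or more was 29.9%, 58.9% and 46.3% in shCTR and 35.3%, 29.9%, 54.2% and 64.0% in shSYNCRIP, so shSYNCRIP replicate 1 was not the lowest there and replicate 3 lay below shCTR replicate 2.

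Intermediate values were rare. Of the 99 counts above 0 that the members had in the 7 libraries, 62 were between 1 and 9, 8 between 10 and 23, and 29 at 122 or above, with none between 23 and 122. Over all mature miRNAs, 8.81% of the 1407 counts above 0 lay from 10 to 99, close to the 8.08% in the cluster. The cause of this gap was not tested.

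hsa-miR-127-3p was the most abundant member and the only one counted in all 7 libraries. It lies at chr14:100883035-100883056 of GRCh38, antisense to an exon of RTL1, whose transcript it is known to pair with fully, and within an intron of the noncoding gene AL117190.1 (GENCODE release 29). Its counts were 682, 327 and 1342 in shCTR and 1601, 22, 1092 and 310 in shSYNCRIP. As CPM, counts scaled to the TMM library size, these were 6624, 2276 and 3488 in shCTR against 9705, 757, 5285 and 3102 in shSYNCRIP. The highest and the lowest value were both in shSYNCRIP, in replicates 1 and 2. The mean levels of 4129 ± 2244 CPM (SD, n = 3) for shCTR and 4712 ± 3808 CPM (SD, n = 4) for shSYNCRIP differed by less than the spread (log2 fold change 0.53 ± 1.21 SE by limma-voom, adjusted p 0.992). By mean CPM it ranked 46 in the whole count table.

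hsa-miR-369-3p was the other member with 100 counts or more in over 2 libraries. The hairpin lies near the DIO3 end of the cluster, with the mature sequence at chr14:101065641-101065661 in an intron of MEG9 (GENCODE release 29). It is known for binding the AU-rich element of the TNF mRNA and raising its translation in arrested cells. Its counts were 718, 642 and 623 in shCTR, and 3, 161, 193 and 0 in shSYNCRIP. On the CPM scale these were 6974, 4468 and 1619 CPM in shCTR, and 18.2, 5537, 934 and 0 CPM in shSYNCRIP. The groups overlapped, because shSYNCRIP replicate 2, the shallowest library, lay above shCTR replicates 2 and 3. Its 161 counts were 0.539% of that library (95% exact binomial interval 0.459% to 0.629%), and in replicate 4 the upper limit of that interval for a count of 0 was 0.00321%. shCTR had a mean level of 4354 ± 2679 CPM (SD, n = 3) and shSYNCRIP one of 1622 ± 2646 CPM (SD, n = 4).

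On the log2 CPM scale miR-369-3p averaged 11.86 ± 1.08 (SD, n = 3) in shCTR and 7.72 ± 4.14 (SD, n = 4) in shSYNCRIP, with shSYNCRIP minus shCTR at -4.14 (exact permutation, two-sided, p = 0.229, where 0.0286 is the smallest that 35 splits allow). limma-voom gave it a log2 fold change of -3.53 ± 1.94 (SE), with a nominal p of 0.0735 and an adjusted p of 0.460. It thus met the nominal criteria of the study's methods (p under 0.1 and a fold change beyond 0.5, read here as log2) and failed the adjustment. The quasi-likelihood test of edgeR gave -1.43 (adjusted p 0.983) and DESeq2 gave -1.29 (adjusted p 0.983). Leaving out shSYNCRIP replicate 1 (limma-voom -3.08, nominal p 0.174) or replicate 4 (-2.79, nominal p 0.152) ended the call, and leaving out replicate 2 moved the value to -6.17 (nominal p 0.00696). The study went on to measure miR-369-3p by RT-qPCR with these libraries in hand, so the test here is not independent evidence of its direction.

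Relative to miR-127-3p, the level of miR-369-3p was not stable in either group. The ratio of their counts was 1.05, 1.96 and 0.464 in shCTR and 0.00187, 7.32, 0.177 and 0 in shSYNCRIP. shSYNCRIP replicate 2 had the highest ratio of all libraries and replicates 1 and 4 the lowest, so that the shSYNCRIP values lay on both sides of the shCTR range.

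None of the neighbours of miR-369-3p had, like it, 100 counts or more in all 3 shCTR libraries. The hairpin of miR-409 ends 219 bases before that of miR-369, miR-412 lies between them, and the hairpins of miR-410 and miR-656 begin 244 and 1056 bases after it. miR-409-5p had 1, 182 and 913 counts in shCTR and 2, 1, 0 and 0 in shSYNCRIP, so that its high values were in shCTR but in replicates 2 and 3 only. The 3p arm of the same hairpin, miR-409-3p, had 573 counts in shSYNCRIP replicate 3 and at most 2 in the other 6 libraries. miR-412-5p, which was not among the 43, was counted in shSYNCRIP replicates 2 and 3 (89 and 66 counts) and in no other library. miR-410-3p had 2 counts in shSYNCRIP replicate 1 and 0 elsewhere, and miR-656-3p had none. These neighbours were not in the fit, because too few libraries held enough of their counts for the filter. Under 3 other settings miR-409-5p was fitted and met the nominal limma-voom criteria together with miR-369-3p, lower in shSYNCRIP: with no filter, with 1 CPM or more asked of 3 libraries, and without shCTR replicate 1. In the latter 2 settings it took the place of miR-433-3p among the 2 members called. Without shCTR replicate 1, miR-409-5p passed the filter through shCTR replicates 2 and 3 alone. It had to be higher in shCTR to be tested there, so that call is given as a description.

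**Figure D3:**
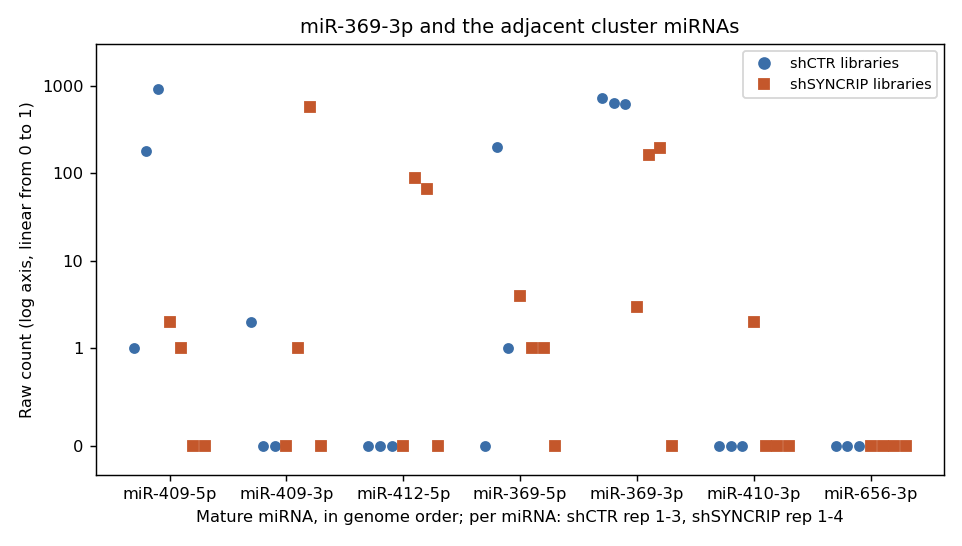
Raw counts (log axis, linear from 0 to 1) of miR-369-3p and the adjacent mature miRNAs in genome order, 1 point per library (blue circles, shCTR; orange squares, shSYNCRIP). miR-369-3p has 623 to 718 counts in the shCTR libraries and 0 to 193 in the shSYNCRIP libraries, while each neighbour has high counts in at most 2 libraries.

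Both arms of a hairpin were rarely abundant together. The 5p arm, miR-369-5p, reached 199 counts in shCTR replicate 2, where miR-369-3p had 642, and at most 4 counts elsewhere. This was the only case of both arms at 100 counts or more in the same library. For miR-409 the arms changed places, with 913 counts of 5p and 0 of 3p in shCTR replicate 3, and 0 of 5p and 573 of 3p in shSYNCRIP replicate 3. For miR-127 the 5p arm had 3 counts, all in shSYNCRIP replicate 1.

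Of the 43 members, 6 passed the filter on low counts and entered the fit over 117 miRNAs: miR-127-3p, miR-369-3p, miR-433-3p, miR-411-5p, miR-487b-3p and miR-382-5p. At the nominal criteria of the study 2 of these 6 were lower in shSYNCRIP, miR-369-3p and miR-433-3p, and 0 were higher, where 12.8% of all miRNAs tested were lower and 5.13% higher. With 6 tested, nothing particular to the cluster is read from this count. Adjusted p values under 0.05 were given to 0 members by limma-voom (2.56% of all tested), by DESeq2 (2.56% of all tested) and by the quasi-likelihood test of edgeR (0% of all tested). At an unadjusted p under 0.05 the quasi-likelihood test called 1.71% of all miRNAs and 0 members. None of the 6 had groups without overlap in CPM, against 4.27% of all tested lower and 2.56% higher. The median log2 fold change of the 6 was -1.66 in limma-voom and -0.94 in the quasi-likelihood test, and over all 117 it was -0.07 and 0.09.

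hsa-miR-433-3p, a miRNA antisense to RTL1 like miR-127-3p, had 375, 156 and 20 counts in shCTR and 15, 5, 0 and 0 in shSYNCRIP. In CPM these were 3642, 1086 and 52.0 against 90.9, 172, 0 and 0. The lowest shCTR library, replicate 3, lay below shSYNCRIP replicates 1 and 2. limma-voom put it at -4.08 ± 2.40 (log2 fold change ± SE, nominal p 0.0946, adjusted p 0.527). The quasi-likelihood test gave -4.65 (nominal p 0.108, adjusted p 0.983) and DESeq2 gave -4.55 (nominal p 0.0278, adjusted p 0.425). The nominal call was lost without shCTR replicate 1 (nominal p 0.284) or 2 (0.190) and without shSYNCRIP replicate 3 (0.178) or 4 (0.115), all by limma-voom. limma-voom also lost it with 1 CPM or more asked of 3 libraries (nominal p 0.149) and with quality weights (nominal p 0.166). Without shCTR replicate 3 the value was -6.25 (limma-voom nominal p 0.0140).

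Among the 6 tested members hsa-miR-382-5p had the largest difference in the other direction, and it did not meet the criteria. It had 2, 0 and 4 counts in shCTR and 16, 4, 400 and 0 in shSYNCRIP. The group difference came mainly from shSYNCRIP replicate 3, and replicate 4 lay with the shCTR libraries. It passed the filter through shSYNCRIP replicates 1 to 3 alone, and left the fit when any of these was left out, so it had to be higher there to be tested and the values below are given as a description. limma-voom put it at 3.36 ± 2.40 (log2 fold change ± SE, adjusted p 0.723), and the quasi-likelihood test gave 5.69 (nominal p 0.0708, adjusted p 0.983). DESeq2 gave 5.50 (nominal p 0.0140, adjusted p 0.300). In the fit without shSYNCRIP replicate 4 it met the nominal criteria of limma-voom (4.65, nominal p 0.0488).

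miR-411-5p and miR-487b-3p met the criteria in none of the tests that gave them a p value. miR-411-5p had 7, 292 and 7 counts in shCTR and 17, 3, 0 and 0 in shSYNCRIP (-2.84 ± 2.57 SE on the log2 scale by limma-voom, adjusted p 0.763). Only shCTR replicate 2 was high. miR-487b-3p had 4, 205 and 2 counts in shCTR and 11, 1, 273 and 0 in shSYNCRIP (-0.47 ± 2.57 SE on the log2 scale by limma-voom, adjusted p 0.992). Its high values were divided between the groups, 1 library in each. DESeq2 gave no p value for either of them.

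**Figure D4:**
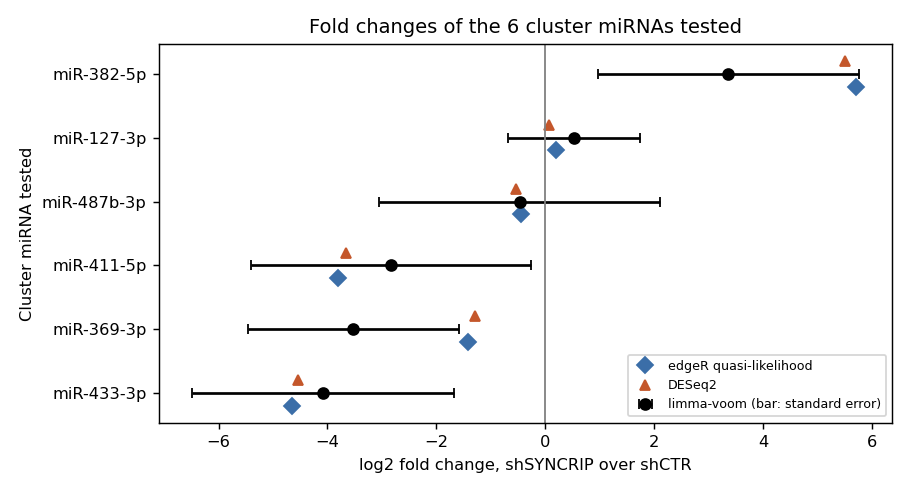
log2 fold change (shSYNCRIP over shCTR) of the 6 cluster miRNAs tested, from limma-voom with its standard error, the quasi-likelihood test of edgeR and DESeq2. For miR-369-3p the limma-voom value of -3.53 lies further from 0 than the -1.43 and -1.29 of the other tests, and for miR-382-5p it lies nearer to 0.

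The other 37 members did not enter the fit. Of these, 8 reached 100 counts in 1 or 2 libraries. miR-493-5p, the outermost member on the DLK1 side, had 1276 counts in shCTR replicate 3, 169 in shSYNCRIP replicate 4 and 0 in the other 5 libraries. miR-432-5p, also antisense to RTL1, had 382 counts in shCTR replicate 2 and 361 in shSYNCRIP replicate 3, with at most 1 elsewhere. Both were thus high in 1 library of each group. miR-431-5p, another RTL1 antisense miRNA, had 332 counts in shCTR replicate 3 and at most 4 elsewhere, and miR-376b-3p, reported to repress autophagy genes, had its 156 counts in shCTR replicate 1 alone. miR-494-3p had 122 and 199 counts in shSYNCRIP replicates 2 and 3 and 0 in the other 5 libraries. Counting also miR-433-3p, miR-411-5p, miR-487b-3p and miR-382-5p, 12 members besides miR-127-3p and miR-369-3p reached 100 counts. For 6 of these the high values were in shCTR only, for 3 in shSYNCRIP only, and for 3 in both groups. Of the 12, 6 were high in a single library. The same split was not made over all miRNAs, so nothing particular to the cluster is read from it.

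The other 18 detected members had counts of 23 or lower throughout. The highest of these was miR-379-5p, the first miRNA of the MIR379 to MIR656 stretch, with 23, 2 and 1 counts in shCTR and 8, 0, 0 and 0 in shSYNCRIP. miR-495-3p followed with 2, 1 and 4 counts against 10, 1, 0 and 0. miR-134-5p, known from its action on Limk1 in dendritic spines, had 1 count in all. Of 49 further mature miRNAs of the same domain, 16 were detected and held 194 counts, 0 passed the filter, and all but miR-412-5p stayed at or below 6 counts in every library.

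The motif hEXO, to which SYNCRIP binds, was looked for in the 43 sequences after their first 7 bases, on the RNA strand only and with overlapping matches allowed. It has 6 positions: 3 bases other than C, a base other than U, then A or U, then G or C. It was present in 26 of the 43 members (60.5%), in 8 of the 14 with 100 counts or more (57.1%) and in 4 of the 6 tested (66.7%). Over 2367 mature miRNAs of the count table with a RefSeq sequence it was present in 63.6%, so the cluster held it about as often as miRNAs at large. miR-369-3p carries it from base 13, as shown in capitals.
hsa-miR-369-3p: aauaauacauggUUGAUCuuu
hsa-miR-433-3p: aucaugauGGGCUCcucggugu
hsa-miR-382-5p: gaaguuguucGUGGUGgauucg
hsa-miR-487b-3p: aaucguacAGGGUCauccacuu
hsa-miR-127-3p: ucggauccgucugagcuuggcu
hsa-miR-411-5p: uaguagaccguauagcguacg
The first 4 of these, the tested members with a match, had limma-voom log2 fold changes of -3.53, -4.08, 3.36 and -0.47. The last 2, without a match, had 0.53 and -2.84. Values of both signs were found with and without the motif, and a match is a description of the letters only.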

How the data were processed

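Small RNA-seq libraries of HepG2 sEVs were prepared from 3 shCTR and 4 shSYNCRIP biological replicates. The authors trimmed adapters with FastqToolkit 2.2.5, removed reads under 16 bases or a mean quality of 30 with Cutadapt, kept forward reads, counted them with MiRDeep2 1.3.1 against miRBase 22.1 and deposited raw counts per mature miRNA. How reads matching several miRNAs were counted is not given in the sources used here, but miR-199a-3p and miR-199b-3p, identical in sequence, had the same count in every library, as did miR-376b-5p and miR-376c-5p, which share 20 bases.

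Columns were matched to samples through the titles, which give group and number. From the counts, TMM and limma-voom were run as in the study's methods (R 4.3.3, edgeR 4.0.16, limma 3.58.1), after filterByExpr with its default settings, since the study's own filter is not given in the sources used here, with the edgeR quasi-likelihood test and DESeq2 1.42.0 beside them. Each was fitted on all 117 miRNAs passing the filter, with Benjamini-Hochberg adjustment over all of them. The fits were run on simulated counts with known changes, as a check of the code and not of how well they suit these libraries. log2 CPM used a prior count of 2. Sequences were taken from RefSeq (GRCh38.p14) and host genes from GENCODE release 29, and the submitters' processing notes name GRCh38. Depth ranged from 29863 to 388226 counts, so that a count of 0 allows a share of 0.000773% to 0.0100% (3 counts of the total), for counting error alone. Named miRNAs were miR-369 and its nearest neighbours, every member passing the filter and every member with at least 100 counts in some library, and a few others were named after their values were seen. The members and lists were chosen with earlier results of these data known. Alternatives were other size factors, filters, tests, prior counts and detection minimums, quality weights, a replicate block and each library left out.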

Additional observations from a re-analysis of the deposited data

Results flagged for a closer look

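Among 16 groups of 4 shSYNCRIP libraries (named members, the cluster share and the number of members detected), 3 had a library far from the other 3 by Dixon's ratio. In each of these the other 3 libraries had a count of 0, which fixes the ratio at its maximum whatever the remaining count, so the usual chance of 1 in 20 does not apply and the values are given as a description. miR-493-5p stood at 10.73 on the log2 CPM scale in shSYNCRIP replicate 4, with 169 counts, against 3.63 in each of the others, where its count was 0. miR-432-5p stood at 10.78 in shSYNCRIP replicate 3, with 361 counts, against the same 3.63. miR-410-3p stood at 4.61 in shSYNCRIP replicate 1, which rests on 2 counts against 0 in the others. The value of 3.63 is what a count of 0 gives with the prior count of 2. The groups share libraries and are not independent.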

How the results depend on the processing

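Under other settings, the number of all miRNAs meeting the nominal criteria moved from 21 of 117 to 87 of 406 with no filter (22 lower, 65 higher). It was 3 where all libraries needed 10 counts, 8 with the quasi-likelihood test and 11 with DESeq2. It ranged from 16 to 22 when 1 library was left out. For cluster members the number moved from 2 of 6 to 5 of 32 with no filter (3 lower, 2 higher). Of these 5, miR-494-3p had counts in shSYNCRIP libraries alone, so its call is a description. Nothing particular to the cluster is read from these numbers. The number of members called fell to 0 where all libraries needed 10 counts (only miR-127-3p tested). It was 1 with the quasi-likelihood test and 1 with quality weights (miR-382-5p in both), and 2 with DESeq2 (miR-382-5p and miR-433-3p). With a library left out it ranged from 1 to 2. As miR-382-5p passed the filter through shSYNCRIP replicates 1 to 3 alone, where it was higher, its calls are a description. The cause of these moves was not tested beyond the number of miRNAs each filter admits. The log2 fold change of miR-369-3p was negative in all settings that gave a value, but missed the criteria with the quasi-likelihood test (-1.43), DESeq2 (-1.29), quality weights (-2.75) and the replicate block (-2.36), and ran from -6.17 to -2.79 with a library left out. With at least 10 counts in every library it could not be fitted. miR-127-3p turned to -0.14 with no filter and to -0.15 where all libraries needed 10 counts, and ran from -0.30 to 0.64 with a library left out. miR-487b-3p turned to 0.71 in the replicate block and ran from -1.80 to 0.63 with a library left out.

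In the exact permutation test of miR-369-3p, p was 0.1 to 0.3 with a library left out (difference -5.71 to -2.77), and no design with 6 libraries can reach 0.05. The quasi-likelihood test gave an adjusted p under 0.05 to 0 miRNAs with every library left out, and limma-voom and DESeq2 gave it to 3 each, none of them cluster members. The difference in cluster share ran from -0.759 to -0.377 percentage points with a library left out. The median number of members detected per library fell from 14 to 7 at a minimum of 4 counts and to 6 at a minimum of 10. Deviations from the group means correlated at -0.0641, -0.0330 and 0.0883 between libraries of the same replicate number, for numbers 1 to 3. Of the shCTR libraries, only replicate 3 correlated best with its own number. shCTR replicate 1 was highest with shSYNCRIP replicate 4 (0.133), and shCTR replicate 2 with shSYNCRIP replicate 1 (0.148). With so few libraries this cannot exclude that replicate numbers pair the samples, which the labels do not state. The replicate block over numbers 1 to 3 left 2 members called, miR-433-3p and miR-382-5p (4.85, nominal p 0.0361 by limma-voom). The limit given above for miR-382-5p, which passed the filter through the group where it was higher, holds here too. Of the 43 members, 37 failed the filter, among them the 11 never counted and the 18 that never passed 23 counts. The rest of these reached 100 counts in at most 2 libraries.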

Other observations

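Among the domain's miRNAs outside the 43, miR-376b-5p and miR-376c-5p each had 1 count in shCTR replicate 1 and 2 counts in shSYNCRIP replicates 1 and 2. miR-376b-3p, the opposite arm, was counted only in shCTR replicate 1 (156 counts), and miR-376a-3p, which shares its first 18 bases, had 0 there but 1 and 2 counts in shCTR replicates 2 and 3 and 7 and 2 in shSYNCRIP replicates 1 and 2. miR-496 had 6 counts in shSYNCRIP replicate 1 and 1 in shCTR replicate 2.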
